A study of Rattus norvegicus with 120 samples.

Results

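The heat shock protein genes followed here are 10 named rat genes: the small heat shock proteins Hspb1, Hspb6 and Cryab, the HSP70 and HSP110 genes Hspa8 and Hsph1, the HSP90 genes Hsp90aa1 and Hsp90ab1, the HSP40 gene Dnajb1, and the mitochondrial chaperonin pair Hspd1 and Hspe1. A gene was measured by the probe sets that map to it alone, and where there were several, by the one with the highest mean over all 120 arrays. On that rule 8 of the 10 were measured, out of 14217 genes with a probe set of their own. The probe set of Hspa8 is shared with Haus8l2 and both probe sets of Hsp90aa1 with Hsp90aa1-ps17, so neither gene is given a value. The list is given by gene name and was chosen with earlier results of these data known. No difference between groups entered the choice of a probe set.

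The study dosed male SD (Sprague-Dawley) rats, 5 to 7 weeks old before treatment, by daily intraperitoneal injection, to look for early markers of the kidney toxicity of calcineurin inhibitors, and measured kidney RNA on Affymetrix Rat 230 2.0 arrays, 1 array per rat. The treatments were CsA at 25 or 2.5 mg/kg/day, FK506 at 6 or 0.6 mg/kg/day, Rapa at 10 or 1 mg/kg/day, and olive oil, the vehicle. Each ran for 1, 7, 14 or 28 days, with necropsy 24 hours after the last dose, which gives 28 groups. Groups held 4 rats on days 1, 7 and 14, except FK506 at 6 mg/kg on day 14 with 3. On day 28 there were 4 rats on CsA at 25 mg/kg, 5 on CsA at 2.5 mg/kg, 5 on FK506 at 6 mg/kg, 6 on FK506 at 0.6 mg/kg, 6 on each Rapa dose and 5 on vehicle. The RNA came from pieces of both kidneys of a rat, and the labels describe no separation of cortex and medulla. In such tissue, fewer cells of a type and less RNA per cell cannot be told apart. The doses in mg/kg differ between the drugs.

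Heat shock proteins are molecular chaperones. The small ones hold unfolding proteins without using ATP, HSP70 with its HSP40 and HSP110 partners refolds them in ATP-driven cycles, HSP90 finishes kinases and hormone receptors, and HSP60 with HSP10 folds imported proteins inside mitochondria. When unfolded proteins build up, the transcription factor HSF1 binds heat shock elements, inverted repeats of the short unit GAA, in the promoters of many of these genes. In the kidney the salty, urea-rich inner medulla is a known site of high small heat shock protein content. CsA (cyclosporin A) and FK506 (tacrolimus) bind separate immunophilins and inhibit the phosphatase calcineurin, while Rapa (rapamycin) binds the same immunophilin as FK506 and inhibits the kinase mTOR.

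Sequence before the start site is shown for the 3 genes whose values the results turn on and for which a promoter was given, Hspe1, Hspd1 and Hspb6, with Hspb1 and Hsph1 for comparison. The windows come from RefSeq on GRCr8, hold the 250 bases before the start, run 5′ to 3′ on the gene's strand and are in lower case. Capitals mark matches to GAANNTTC or TTCNNGAA, pairs of heat shock element units facing each other or facing away. Both motifs read the same on the other strand, and neighbouring matches may overlap and are then capitalised as 1 run.
Hspe1, chr9:64084077-64084326, plus strand: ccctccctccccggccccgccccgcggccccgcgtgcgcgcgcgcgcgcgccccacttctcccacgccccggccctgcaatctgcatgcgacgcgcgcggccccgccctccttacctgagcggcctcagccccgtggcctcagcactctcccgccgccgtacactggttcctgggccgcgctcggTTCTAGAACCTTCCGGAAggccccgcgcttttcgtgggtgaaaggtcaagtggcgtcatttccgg
Hspd1, the capital run of its window at chr9:64084038-64084287, minus strand: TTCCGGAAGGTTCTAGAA
Hspb6, chr1:94934122-94934371, plus strand: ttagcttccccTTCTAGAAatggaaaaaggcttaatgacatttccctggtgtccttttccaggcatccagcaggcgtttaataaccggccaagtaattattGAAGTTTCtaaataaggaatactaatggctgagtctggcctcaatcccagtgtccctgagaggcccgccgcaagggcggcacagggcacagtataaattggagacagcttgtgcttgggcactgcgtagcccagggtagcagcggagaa
Hspb1, chr12:26432302-26432551, minus strand: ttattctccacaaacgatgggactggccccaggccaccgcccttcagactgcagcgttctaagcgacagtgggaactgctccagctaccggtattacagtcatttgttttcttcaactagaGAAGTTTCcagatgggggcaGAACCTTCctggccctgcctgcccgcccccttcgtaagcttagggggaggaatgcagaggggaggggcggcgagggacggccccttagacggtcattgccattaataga
Hsph1, chr12:10427118-10427367, plus strand: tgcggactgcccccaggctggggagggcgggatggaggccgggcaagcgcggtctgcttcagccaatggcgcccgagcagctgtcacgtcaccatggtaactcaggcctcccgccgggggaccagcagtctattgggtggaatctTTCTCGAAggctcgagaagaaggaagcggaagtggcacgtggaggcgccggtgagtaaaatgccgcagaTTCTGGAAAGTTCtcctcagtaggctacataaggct
Hspd1 and Hspe1 are transcribed away from each other, and their windows of 300 bases, 250 before and 50 after the start, share 211 bases on opposite strands. The 18-base run of Hspe1 is therefore the same piece of DNA as that of Hspd1. Its first base on the plus strand lies at -65 from the Hspe1 start, and the run sits at the far end of the Hspd1 window. Counted the same way, Hspb6 held separate matches at -239 and -149 and was the only gene of the set whose window held TATAAA on its own strand, a motif found in 8.8% of all promoters. Hspb1 held matches at -129 and -109, and Hsph1 an overlapping pair at -36 and -31 beside a single one at -105. Among 33469 rat promoters of 300 bases, 15.85% held either motif and 0.8% held 3 units in a row. Of the 8 heat shock protein genes with a promoter, Hspa8 included, 7 held either motif and 4 held 3 units in a row, and Hsp90ab1 held none. A match describes the letters only. Cryab and Hsp90aa1 are named without a sequence.

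Values below are log2 levels of the authors' deposited intensities after adding 16 and quantile normalization, and a difference is the drug group minus the vehicle rats of the same day, or 1 drug group minus another. All 8 probe sets were brighter on average than the dim limit of 5.75, below which genes were left out. Calls are from limma fitted on 10663 genes over all 120 arrays, two-sided, with Benjamini-Hochberg adjusted p under 0.05 over the genes of each comparison, and a difference is given with its SE or, in brackets, its 95% interval. Nothing in the labels says that the rats of a group were litter mates or shared a batch. Replicate numbers only name rats.

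A few arrays stood apart. In 1 array of CsA at 25 mg/kg on day 28, rat 3 of its group, 17.0% of values were listed at 0 and the mean correlation with its own group was 0.870, against 0.94 or more elsewhere. Albumin (Alb), a liver transcript, was over 12 on the log2 scale in 4 arrays, rats 3 and 4 of CsA at 25 mg/kg on day 1, rat 4 of CsA at 2.5 mg/kg on day 14 and rat 2 of CsA at 2.5 mg/kg on day 28. All 12 proximal tubule markers were above the dim limit, while 7 of 9 skeletal muscle markers with a probe set were below it. The other 2 were Tnni2, at a mean of 6.05, and Myh1, at 12.68. Myh1 was called against vehicle 4 times lower and 1 time higher, with -0.57 on CsA at 25 mg/kg on day 28. The summed level of the 9 had its lowest group mean on CsA at 25 mg/kg on day 14 (12.35). Its highest was on Rapa at 1 mg/kg on day 14 (13.06). The part of muscle RNA in the values below was not tested. The control probes of hybridization read 9.66 ± 1.20 for Rapa at 1 mg/kg and 9.15 ± 1.04 for FK506 at 6 mg/kg on day 28, against 10.67 ± 0.06 in vehicle (SD, n = 6, 5 and 5). The log2 ratio of 3′ to 5′ Gapdh probes, a sign of RNA integrity, also moved with groups. On day 7 its mean was 0.44 on CsA at 25 mg/kg, 0.43 and 0.44 on FK506 at 0.6 and 6 mg/kg, and 0.42 and 0.40 on Rapa at 1 and 10 mg/kg, against 0.76 in vehicle, while CsA at 2.5 mg/kg was at 0.85. On day 1 it was 0.68 and 0.73 on Rapa at 1 and 10 mg/kg, against 0.32 in vehicle.

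Of the 192 pairs of a gene and a drug group against vehicle, 21 were called, 2 higher and 19 lower, and 50 had an unadjusted p under 0.05. Over all genes tested, 5.22% of such pairs were called, 2.65% higher and 2.58% lower. The 5 genes that moved were Hspb6, lower on CsA and FK506, Hspd1 and Hspe1, lower mainly on Rapa, and Cryab and Hspb1 in 1 or 2 groups. Hsp90ab1, Hsph1 and Dnajb1 had no call in 24 comparisons each. No pair was called on day 1, 3 on day 7, 6 on day 14 and 12 on day 28, out of 48 on each day. Calls over all 10663 genes rose by day as well. The largest count in 1 comparison was 328, 778, 1118 and 2255 genes on days 1, 7, 14 and 28. CsA at 2.5 mg/kg had 0 calls in 32 pairs by limma, with 2 at an unadjusted p under 0.05, and over all genes 0.0164% of its pairs were called.

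**Figure D1:**
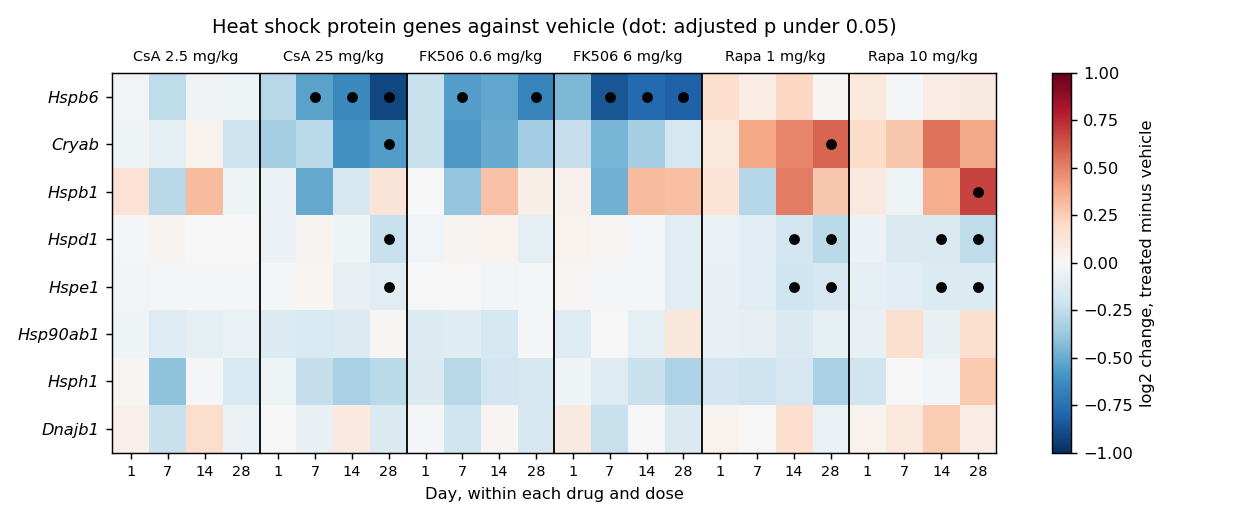
Log2 difference from the vehicle rats of the same day for the 8 measured genes (rows) in the 24 drug, dose and day groups (columns), with blue lower, red higher and a dot on each pair called by limma. The lower block of Hspb6 runs over the CsA 25 mg/kg and FK506 columns from day 7, and the called Hspd1 and Hspe1 cells lie in the Rapa columns of days 14 and 28 and in CsA 25 mg/kg on day 28.

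Hspb6 (HSP20), a small heat shock protein best known from heart and smooth muscle, fell in 8 of the 16 comparisons of CsA or FK506 with vehicle and in none of the 8 of Rapa. It fell on CsA at 25 mg/kg and FK506 at 6 mg/kg on days 7, 14 and 28, and on FK506 at 0.6 mg/kg on days 7 and 28. All 34 drug-treated rats of these comparisons were below the vehicle mean of their day, and in all 8 the ranges of the groups did not overlap. The 8 were picked by their calls, so both counts follow in part from the calls and are no separate support. Over all genes, the share called was 3.97%, 7.89% and 21.1% for CsA at 25 mg/kg on days 7, 14 and 28, 3.20%, 2.68% and 16.0% for FK506 at 6 mg/kg, and 1.93% and 4.33% for FK506 at 0.6 mg/kg on days 7 and 28.

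On day 28 Hspb6 read 8.82, 8.19, 8.42 and 7.90 in the rats on CsA at 25 mg/kg, against 9.37, 9.14, 9.16, 8.96 and 9.58 in vehicle. FK506 at 6 mg/kg gave 8.62, 8.34, 8.17, 8.70 and 8.32, and FK506 at 0.6 mg/kg had a lowest value of 8.52, a median of 8.58 and a highest value of 8.62. The highest rat of each of these drug groups was under the lowest vehicle rat. The difference from vehicle was -0.91 ± 0.15 (SE) for CsA at 25 mg/kg, 1.88-fold lower, with group means of 8.33 ± 0.39 and 9.24 ± 0.24 (SD, n = 4 and 5) and a limma adjusted p of 1.98e-06. It was -0.81 ± 0.14 for FK506 at 6 mg/kg, 1.75-fold lower, with a limma adjusted p of 1.02e-05. The lower FK506 dose gave -0.67 ± 0.13, 1.59-fold lower, with a limma adjusted p of 0.000816. At the lower CsA dose the rats read 9.24, 9.11, 8.98, 9.51 and 9.18, inside the vehicle range.

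Lower values were present from day 7. On that day Hspb6 read 8.63, 8.44, 8.71 and 8.19 on FK506 at 6 mg/kg, against 9.15, 9.48, 9.35 and 9.40 in vehicle, a difference of -0.85 ± 0.16 (SE) with a limma adjusted p of 0.000226. CsA at 25 mg/kg gave 9.02, 9.03, 8.70 and 8.48 and FK506 at 0.6 mg/kg gave 8.68, 8.73, 8.65 and 9.14. Their differences were -0.54 and -0.55, with limma adjusted p-values of 0.0304 and 0.041, and these 2 calls were the least firm: the CsA call was lost without any 1 of 5 of its 8 rats (-0.61 to -0.43 over the rats left out) and the FK506 call without any 1 of 6 of its 8 (-0.66 to -0.50). Both were also lost with the Gapdh ratio as a covariate, at -0.50 with a limma adjusted p of 0.0991 and -0.51 with 0.162. On day 14 the values were 8.67, 8.61, 8.89 and 8.41 on CsA at 25 mg/kg and 8.38, 8.71 and 8.44 on FK506 at 6 mg/kg, against 9.29, 9.52, 9.20 and 9.14 in vehicle. These groups were lower by -0.64 and -0.78, with limma adjusted p-values of 0.00397 and 0.00366. FK506 at 0.6 mg/kg on day 14 read 8.58, 9.14, 8.50 and 8.86, with a difference of -0.52 that was not called (limma adjusted p 0.0832).

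After a single dose no Hspb6 difference was called. The rats on FK506 at 6 mg/kg read 8.64, 9.08, 8.86 and 9.03 and those on CsA at 25 mg/kg 9.03, 9.27, 8.92 and 9.09, against 9.33, 9.63, 9.05 and 9.39 in vehicle. The FK506 difference on day 1 was -0.45, with a limma adjusted p of 0.518. All 16 differences on CsA and FK506 were below 0, and 14 of 16 were when arrays were only centred on their median. On Rapa 7 of 8 were above 0, between -0.01 and 0.21, and none was called. On day 28 Hspb6 read 9.06, 9.29 and 9.63 at the lowest, median and highest on Rapa at 10 mg/kg and 8.46, 9.35 and 9.64 on Rapa at 1 mg/kg, where 1 rat was low.

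**Figure D2:**
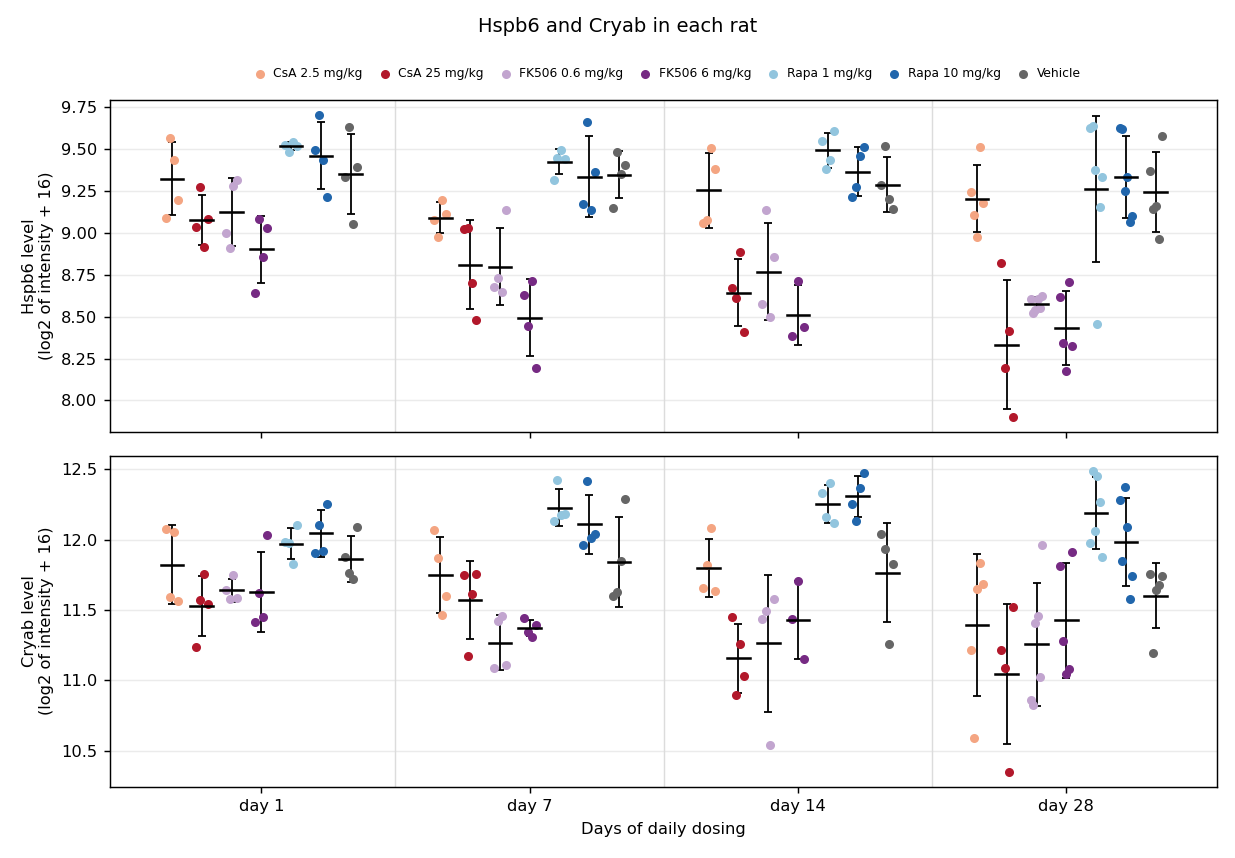
Log2 level of the small heat shock protein genes Hspb6 (upper panel) and Cryab (lower panel) in every rat (points), with each group's mean and SD (lines), by day and, within a day, by drug and dose with vehicle last. For Hspb6 on day 28 every rat on CsA at 25 mg/kg or on FK506 lies under 8.96, the lowest vehicle rat.

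Some distal tubule markers moved with Hspb6 and others did not. Over the 24 comparisons with vehicle, Calb1 and Slc8a1 were each called lower in 9 and never higher, and Slc12a3 lower in 10 and higher in 3. S100g was called higher in 6 and never lower, Klk1 higher in 2 and lower in 1, and Trpv5 in 1 each way. Klk1 rose by 0.86 on FK506 at 6 mg/kg on day 7, where Hspb6 fell. Of 6 distal tubule markers tested, 3 fell and none rose on day 28 on CsA at 25 mg/kg, on FK506 at 0.6 mg/kg and on FK506 at 6 mg/kg, with list medians of -0.78, -0.61 and -0.83 against 0.01, 0.02 and 0.01 over all genes. The summed log2 level per rat of the 7 with a probe set ran over 12.52 to 12.95 on CsA at 25 mg/kg, 12.50 to 12.93 on FK506 at 0.6 mg/kg and 12.38 to 12.75 on FK506 at 6 mg/kg, against 12.91 to 13.79 in vehicle. Of 9 smooth muscle markers tested, 1 rose and 2 fell on CsA at 25 mg/kg on day 28, with a list median of -0.32, the lowest of the 24 comparisons with vehicle, and the median was -0.27 on FK506 at 6 mg/kg. The summed level of the 10 with a probe set was 11.22 to 11.67 on CsA at 25 mg/kg and 11.43 to 11.64 on FK506 at 6 mg/kg, against 11.32 to 11.62 in vehicle. Injured tubule markers went the other way: 8 of 11 rose on CsA at 25 mg/kg on day 28 and 8 on FK506 at 6 mg/kg. The part of these cell types in the Hspb6 values was not tested.

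Cryab (alpha B-crystallin), a small heat shock protein of lens, muscle and kidney medulla, had the widest range of group means of the set, 12.31 on Rapa at 10 mg/kg on day 14 and 11.04 on CsA at 25 mg/kg on day 28, 1.26 apart or 2.40-fold. It rose on Rapa at 1 mg/kg on day 28 and fell on CsA at 25 mg/kg on day 28. Of its 24 differences from vehicle these 2 were called, where 9.85% and 21.1% of all genes were. All 8 Rapa differences were above 0 (0.11 to 0.59) and 15 of 16 on CsA and FK506 were below it.

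On day 28 Cryab read 11.88 at the lowest, 12.16 at the median and 12.49 at the highest on Rapa at 1 mg/kg, against 11.76, 11.19, 11.64, 11.68 and 11.74 in vehicle. The 2 groups did not overlap, and the difference was 0.59 ± 0.18 (SE), 1.5-fold higher, with group means of 12.19 ± 0.25 and 11.60 ± 0.23 (SD, n = 6 and 5) and a limma adjusted p of 0.0198. That call was lost without vehicle rat 2 (0.48) or Rapa rat 2 or 4 (0.52 and 0.53). It was also lost with the hybridization controls as a covariate (0.41, limma adjusted p 0.222) and in a fit of only that day's arrays (limma adjusted p 0.112). Rapa at 10 mg/kg read 11.58, 11.97 and 12.37 at the lowest, median and highest. CsA at 25 mg/kg read 11.22, 11.09, 10.35 and 11.52, with a difference of -0.56 ± 0.20 (SE) and a limma adjusted p of 0.0292. The lowest of these is the array with zeros, and without it the difference was -0.33 with a limma adjusted p of 0.298, so the call rests on that array. It was also lost without vehicle rat 1, 4 or 5 (-0.52, -0.54 and -0.52) and in the fit of only that day's arrays (limma adjusted p 0.123).

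On day 14 Cryab was again higher in the Rapa groups than on CsA at 25 mg/kg. Rapa at 10 mg/kg read 12.26, 12.13, 12.36 and 12.47 and Rapa at 1 mg/kg 12.33, 12.16, 12.40 and 12.11, while CsA at 25 mg/kg read 11.45, 10.89, 11.26 and 11.03. The vehicle rats read 12.04, 11.93, 11.26 and 11.83, all below the lowest rat on Rapa at 10 mg/kg, with the lowest of them inside the CsA range. Neither Rapa dose was called against vehicle for Cryab on that day. The means were 12.31 ± 0.15 on Rapa at 10 mg/kg and 11.77 ± 0.35 in vehicle (SD, n = 4 each). The CsA difference of -0.61 missed the threshold with a limma adjusted p of 0.0503. Markers of the collecting duct, the papilla and the response to high osmolality were counted because Cryab is abundant in the medulla. The list is not confined to the inner medulla, and its brightest gene was Fxyd2, at a mean of 13.07. Of 9 such markers, 2 rose and 1 fell on each Rapa dose on day 28. The list median was 0.36 on Rapa at 1 mg/kg, the highest of the 24 comparisons with vehicle, and 0.32 on Rapa at 10 mg/kg, and it was 0.23 on CsA at 25 mg/kg. The summed level per rat was 13.97 to 14.32 on Rapa at 1 mg/kg and 13.95 to 14.31 on CsA at 25 mg/kg, against 13.96 to 14.22 in vehicle. Their part in the Cryab values was not tested.

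Hspb1 (HSP27), which caps actin filaments and binds unfolding proteins, rose on Rapa at 10 mg/kg on day 28 and was not called elsewhere. There the rats read 9.35, 8.84, 9.89, 9.21, 8.60 and 8.47, against 8.43, 8.36, 8.64, 8.12 and 8.35 in vehicle, and 15.7% of all genes were called. All 6 Rapa rats were above the vehicle mean, although the lowest 2 lay within the vehicle range. The difference was 0.68 ± 0.16 (SE), 1.60-fold higher, with means of 9.06 ± 0.53 and 8.38 ± 0.19 (SD, n = 6 and 5) and a limma adjusted p of 0.000808, and it stayed between 0.51 and 0.80 when any 1 rat was left out. Rapa at 1 mg/kg on day 14 gave 0.51 with a limma adjusted p of 0.0584. On day 7 all 6 drug groups were below vehicle, by up to -0.51, with none called. On that day 1 vehicle rat read 9.43 and the other vehicle rats 8.43 to 8.58.

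The chaperonin genes Hspd1 (HSP60, the barrel) and Hspe1 (HSP10, its lid) each fell on both Rapa doses on days 14 and 28 and on CsA at 25 mg/kg on day 28. These are small changes of bright probe sets, 1.08-fold to 1.21-fold. All 24 drug-treated rats of the 5 called Hspd1 comparisons were below the vehicle mean, and 23 of 24 of the Hspe1 comparisons were. These comparisons too were picked by their calls, so the counts are no separate support. Over all genes 9.05% were called on Rapa at 1 mg/kg and 10.5% on Rapa at 10 mg/kg on day 14, and 9.85% and 15.7% on day 28.

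Hspd1 on day 28 read 12.59 at the lowest, 12.74 at the median and 12.78 at the highest on Rapa at 1 mg/kg, against 12.97, 13.01, 12.97, 12.99 and 12.97 in vehicle. Rapa at 10 mg/kg read 12.67, 12.73 and 12.78 at the lowest, median and highest, and CsA at 25 mg/kg 12.81, 12.75, 12.90 and 12.61. No rat of these 3 groups reached the lowest vehicle rat. The differences were -0.27 ± 0.04 (SE) on Rapa at 1 mg/kg, 1.21-fold lower (limma adjusted p 3.08e-06), -0.25 ± 0.04 on Rapa at 10 mg/kg, 1.19-fold lower (4.6e-06), and -0.22 ± 0.05 on CsA at 25 mg/kg, 1.16-fold lower (0.000245). The same difference on FK506 at 6 mg/kg was -0.11, with a limma adjusted p of 0.0762.

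Hspe1 on day 28 read 12.48, 12.73 and 12.80 at the lowest, median and highest on Rapa at 1 mg/kg and 12.61, 12.73 and 12.80 on Rapa at 10 mg/kg, against 12.89, 12.85, 12.88, 12.82 and 12.84 in vehicle. All 12 rats on Rapa were under the lowest vehicle rat. The differences were -0.17 ± 0.04 (SE, limma adjusted p 0.000653) and -0.13 ± 0.04 (0.00499). On CsA at 25 mg/kg Hspe1 read 12.76, 12.72, 12.88 and 12.64, so that 3 of 4 rats were below the vehicle mean. That difference was -0.11, its limma adjusted p of 0.0466 was close to the threshold, and it was lost without any 1 of 7 of the 9 rats (-0.15 to -0.07).

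On day 14 Hspd1 read 12.86, 12.71, 12.66 and 12.73 on Rapa at 1 mg/kg and 12.72, 12.85, 12.81 and 12.79 on Rapa at 10 mg/kg, against 12.94, 13.02, 12.94 and 12.84 in vehicle. Hspe1 read 12.78, 12.66, 12.70 and 12.65 on Rapa at 1 mg/kg and 12.74, 12.78, 12.74 and 12.78 on Rapa at 10 mg/kg, against 12.91, 12.93, 12.88 and 12.86. The Hspe1 groups did not overlap, and the Hspd1 groups met at 1 vehicle rat. The differences at 1 mg/kg were -0.19 for Hspd1 and -0.20 for Hspe1, with limma adjusted p-values of 0.00585 and 0.000857. At 10 mg/kg both were -0.14, with limma adjusted p-values of 0.0446 and 0.025, and were lost without any 1 of 6 (Hspd1, -0.18 to -0.12) and 4 (Hspe1, -0.15 to -0.12) of the 8 rats.

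These sizes depend on how arrays were scaled. All 8 Rapa differences of each gene were below 0 under each scaling tried. With arrays only centred on their median, the 4 Rapa calls became 3 for Hspd1 and 2 for Hspe1. Of the Rapa calls above, the one of Hspd1 on 10 mg/kg on day 28 remained. Under that centring both genes were called on both Rapa doses on day 7, at -0.29 and -0.41 for Hspd1 and -0.27 and -0.36 for Hspe1. That centring shifts the median of all genes by -0.14 to 0.10 over the 66 comparisons, as large as some of these differences.

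**Figure D3:**
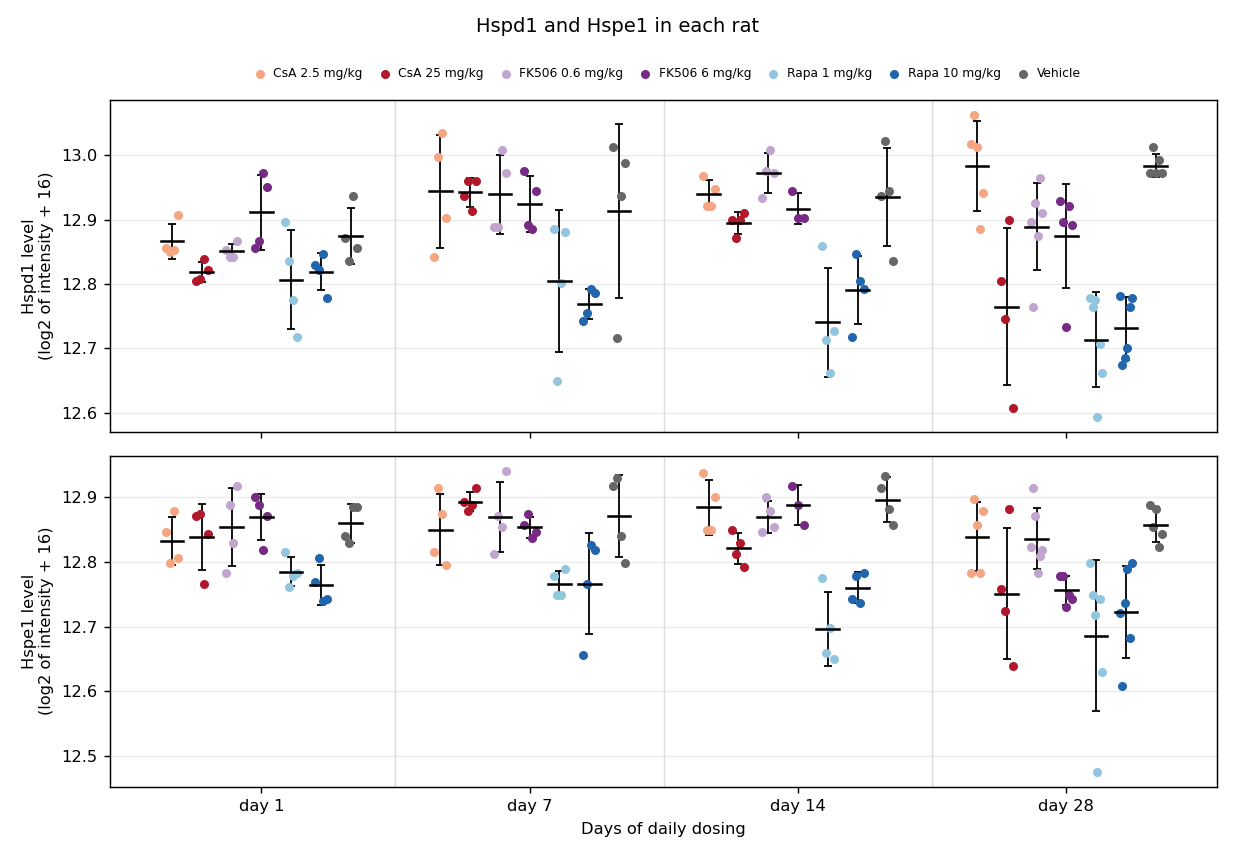
Log2 level of Hspd1 (upper panel) and Hspe1 (lower panel) in every rat (points), with each group's mean and SD (lines), by day and, within a day, by drug and dose with vehicle last. On day 28 the rats on either Rapa dose lie at or under 12.78 for Hspd1 and 12.80 for Hspe1, below all vehicle rats of that day.

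The remaining 3 genes were not called against vehicle. Hsp90ab1, the constitutive HSP90, differed by -0.17 to 0.16 with a smallest limma adjusted p of 0.135. Hsph1 (HSP110), which exchanges the nucleotide of HSP70, differed by -0.40 to 0.26 with a smallest limma adjusted p of 0.151, and 22 of its 24 differences were below 0. Dnajb1, the HSP40 that delivers clients to HSP70, differed by -0.22 to 0.25 with a smallest limma adjusted p of 0.127. A p above the threshold does not show that these genes were unaffected. Each has another probe set of its own, and the sign was the same in 18, 19 and 15 of 24 comparisons for Hsp90ab1, Hsph1 and Dnajb1. The other probe set of Hsp90ab1 was called in 3 comparisons, at -0.46 on Rapa at 1 mg/kg and -0.55 on Rapa at 10 mg/kg on day 1 and 0.45 on Rapa at 10 mg/kg on day 7. That of Dnajb1 was called once, at -0.43 on Rapa at 10 mg/kg on day 1, and that of Hsph1 was not called.

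The drugs were then set against each other at the higher doses, which in mg/kg are not equal. Of 96 pairs 21 were called, 4 higher and 17 lower in the drug named first, against 7.36% of all gene pairs, and 40 had an unadjusted p under 0.05. All 21 were between CsA or FK506 and Rapa. Between CsA at 25 mg/kg and FK506 at 6 mg/kg 0 of 32 pairs were called by limma, with 3 at an unadjusted p under 0.05, where 2.33% of all gene pairs were called over the 4 days. The intervals do not show that these drugs act alike: on day 28 CsA minus FK506 was -0.10 (-0.40 to 0.20) for Hspb6, -0.38 (-0.77 to 0.01) for Cryab and -0.11 (-0.20 to -0.02) for Hspd1.

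Hspb6 separated FK506 from Rapa on every day. FK506 at 6 mg/kg minus Rapa at 10 mg/kg was -0.56 on day 1 (limma adjusted p 0.0426), -0.84 on day 7 (0.000127), -0.86 on day 14 (0.000198) and -0.90 on day 28 (5.93e-07). All genes were called at 1.56%, 6.44%, 9.41% and 11.0% on these days. The day 1 call, the only call on that day, was lost without any 1 of 6 of its 8 rats (-0.64 to -0.47), with dim genes included (-0.56) and with the Gapdh ratio as a covariate (-0.52). The Gapdh ratio was 0.40 ± 0.15 in these FK506 rats, against 0.73 ± 0.15 in the Rapa rats (SD, n = 4 each). CsA at 25 mg/kg minus Rapa at 10 mg/kg was -0.53 on day 7 (limma adjusted p 0.0198), -0.72 on day 14 (0.000443) and -1.0 on day 28 (1.02e-07), where 9.43%, 14.7% and 19.9% of all genes were called. The day 7 call was lost without CsA rat 3 or 4 or Rapa rat 2 (-0.49, -0.42 and -0.42) and with arrays centred on their median (-0.46). On day 28 Hspb6 thus read 8.33 ± 0.39 on CsA and 8.43 ± 0.22 on FK506, against 9.33 ± 0.25 on Rapa (SD, n = 4, 5 and 6).

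Cryab gave the widest drug difference of the set. CsA at 25 mg/kg minus Rapa at 10 mg/kg was -1.15 on day 14, 2.22-fold lower (limma adjusted p 1.57e-05), and -0.94 on day 28 (9.68e-05). The day 28 value was -0.71 without the array with zeros. FK506 at 6 mg/kg minus Rapa at 10 mg/kg was -0.74 on day 7 (limma adjusted p 0.0156), -0.88 on day 14 (0.00516) and -0.56 on day 28 (0.025). The day 28 call was lost without FK506 rat 2, 3 or 4 or Rapa rat 1 or 3 (-0.68 to -0.46 over the 11 rats) and in the fit by day, which uses only that day's arrays, and its value was -0.84 to -0.51 over the alternatives. The day 7 call was lost without Rapa rat 2 (-0.63) and under median centring (-0.57), and the day 14 call without FK506 rat 3 (-0.74). On day 7 Cryab read 11.44, 11.34, 11.31 and 11.39 on FK506, against 11.96, 12.42, 12.01 and 12.04 on Rapa, without overlap. On day 28 the FK506 rats, at 11.81, 11.28, 11.05, 11.08 and 11.91, overlapped those on Rapa, which began at 11.58.

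Hsph1, uncalled against vehicle, differed between drugs on day 28. CsA at 25 mg/kg read 10.17, 10.38, 10.52 and 9.59 and FK506 at 6 mg/kg 10.14, 10.40, 9.95, 10.02 and 10.10, against 10.97, 10.04, 11.03, 11.07, 10.57 and 10.53 on Rapa at 10 mg/kg. The differences from Rapa were -0.54 (limma adjusted p 0.00742) and -0.58 (0.00368), with overlap at 1 low Rapa rat. Vehicle rats read 10.12, 10.58, 10.22, 10.54 and 10.71 on that day, overlapping all 3 groups. The CsA difference lost its call without CsA rat 4 (-0.34), under median centring (-0.43) and in the fit by day. The FK506 difference lost it with the hybridization controls as a covariate (-0.48), controls that read 9.15 in the FK506 rats against 10.73 in the Rapa rats. Hspb1 was lower on CsA than on Rapa on day 14, by -0.53 (limma adjusted p 0.0334), and on day 28, by -0.55 (0.0109), with overlap on both days. The day 14 call was lost without CsA rat 3 or 4 or Rapa rat 1 or 4 (-0.68 to -0.37 over the 8 rats) and in the fit by day, and the day 28 call without CsA rat 1 or Rapa rat 3 (-0.47 and -0.38). Hsp90ab1 was lower on CsA than on Rapa on day 7, by -0.31 (0.0137), its only call among all pairs compared, which was lost without CsA rat 3 or Rapa rat 3 (-0.28 and -0.25) and under median centring (-0.27).

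The chaperonins ran the other way. On day 7 Hspd1 was higher on CsA at 25 mg/kg than on Rapa at 10 mg/kg by 0.17 (limma adjusted p 0.014) and on FK506 at 6 mg/kg by 0.16 (0.0401), and on day 28 on FK506 by 0.14 (0.0156). Hspe1 was higher on CsA than on Rapa on day 7 by 0.13 (0.0429). Among the 3 day 7 differences, that of Hspd1 on FK506 was lost without any 1 of 7 of the 8 rats (0.14 to 0.17). That of Hspe1 on CsA was lost without any 1 of 6 (0.09 to 0.15). All 3 were lost in some of the 11 alternatives: Hspd1 on CsA in 3, Hspd1 on FK506 in 4 and Hspe1 on CsA in 5. The day 28 difference was lost without FK506 rat 1 or 4 (0.13 each) and in 4 of the 11 alternatives, the hybridization controls as a covariate among them. These counts move with the scaling: with arrays only centred on their median, 1 pair was higher and 14 lower at the higher doses, and without normalization 0 were higher and 17 lower.

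**Figure D4:**
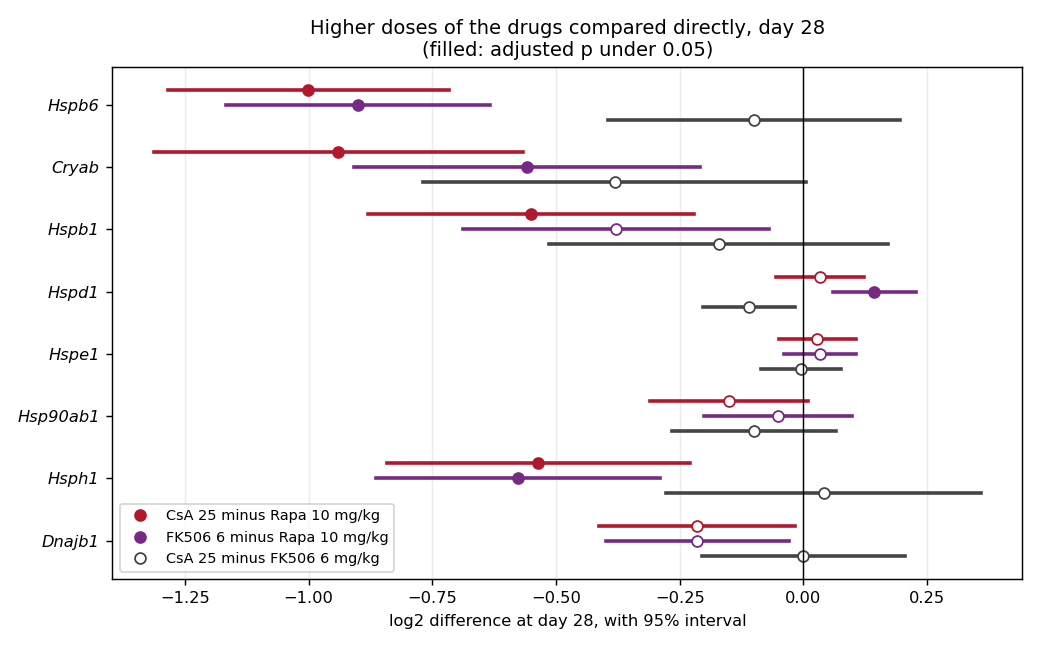
Log2 difference with its 95% interval (points and bars) on day 28 for the 8 genes in the 3 comparisons between drugs at the higher doses, with filled points for calls by limma. The Hspb6 intervals of CsA and of FK506 minus Rapa lie below 0, at -1.0 and -0.90, while that of CsA minus FK506 spans 0.

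At the lower doses 16 of 96 pairs were called, 9 higher and 7 lower, against 4.05% of all gene pairs, and 28 had an unadjusted p under 0.05. With arrays only centred on their median the split was 4 higher and 7 lower. Hspb6 was lower on FK506 at 0.6 mg/kg than on Rapa at 1 mg/kg on days 7, 14 and 28, by -0.63, -0.73 and -0.69, and Cryab on the same days by -0.96, -0.99 and -0.93. Cryab was also lower on CsA at 2.5 mg/kg than on Rapa on day 28, by -0.79, a call lost with the hybridization controls as a covariate (-0.60). Hspd1 was higher on CsA than on Rapa by 0.20 on day 14 and 0.27 on day 28, and on FK506 by 0.23 and 0.18. Hspe1 was higher by 0.19 and 0.15 on CsA and by 0.17 and 0.15 on FK506. With arrays centred on their median, these 8 chaperonin differences were all still above 0 and 5 of them lost the call. The single called difference between CsA and FK506 among all members and doses was Hspb6 on day 28. Hspb6 was higher there on CsA at 2.5 mg/kg than on FK506 at 0.6 mg/kg by 0.63 (limma adjusted p 0.00272, lost in the fit by day, 9.20 ± 0.20 and 8.57 ± 0.04, SD, n = 5 and 6). These 2 doses are not matched.

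Between the 2 doses of a drug 5 of 96 pairs were called, 1 higher and 4 lower at the higher dose, against 2.42% of all gene pairs, and 11 had an unadjusted p under 0.05. The 4 lower calls were all on CsA on days 14 and 28, where 594 and 1966 of the 10663 genes were called. The higher call was on Rapa on day 28, where 13 genes were. Hspb6 was lower on CsA at 25 than at 2.5 mg/kg on day 14, by -0.61 (limma adjusted p 0.00821), and on day 28, by -0.87 (7.24e-06). The day 14 call was lost without CsA rat 4 at 25 mg/kg or rat 3 at 2.5 mg/kg (-0.53 each). Hspd1 was lower on day 28 by -0.22 (0.000313). The other 2 calls sat at the threshold: Cryab on CsA on day 14, at -0.64 (0.0465), lost without any 1 of 7 of its 8 rats (-0.74 to -0.55), and Hsph1 on Rapa on day 28, at 0.59 (0.0474), lost without any 1 of 9 of its 12 rats (0.46 to 0.72). With arrays centred on their median, 0 were higher and 5 lower, and without normalization 0 and 6. FK506 had no call between its doses, where 0, 1, 9 and 173 of the 10663 genes were called on days 1, 7, 14 and 28.

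The vehicle rats, growing over the study, gave 0 calls in 24 pairs between days by limma, with 6 at an unadjusted p under 0.05, while 2.11% of all gene pairs were called. The smallest limma adjusted p was 0.118, for Dnajb1 on day 7 against day 1 at 0.29, and the widest difference was 0.38 for Hspb1 on the same days (limma adjusted p 0.243). Whether an effect grew was tested as its value on day 28 minus its value on day 1. It was called in 0 of 24 pairs by limma, with 8 at an unadjusted p under 0.05, against 4.6% of all gene pairs. The closest were Hspd1 on Rapa at 10 mg/kg, at -0.20 (limma adjusted p 0.0552), and Hspb6 on CsA at 25 mg/kg, at -0.63 (0.0659).

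Ordered by group mean over the 28 groups, Hspb6 ran between 9.52 on Rapa at 1 mg/kg on day 1 and 8.33 on CsA at 25 mg/kg on day 28, 2.27-fold. Hspb1 ran between 9.06 on Rapa at 10 mg/kg on day 28 and 8.04 on CsA at 25 mg/kg on day 14, 2.02-fold. Hsph1 ran between 10.70 on Rapa at 10 mg/kg on day 28 and 9.91 on the same dose on day 1, 1.73-fold. The other genes were steadier: the range was 1.32-fold for Dnajb1, 1.24-fold for Hsp90ab1, 1.21-fold for Hspd1 and 1.16-fold for Hspe1. Hspd1 was lowest on Rapa at 1 mg/kg on day 28 (12.71) and highest in vehicle on the same day (12.98). Of the 27 neighbours in each order, the gap was over the pooled SD of the 2 groups in 1 case for Hspd1, 1 for Hspe1 and none for the other genes, so the orders are nearly continuous.

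Across the 28 group means, which share their arrays and their scaling, the members fell into a few pairs. Pearson's r was 0.874 between Hspd1 and Hspe1 and 0.85 between Hspb6 and Cryab. It was 0.721 between Hsp90ab1 and Hsph1 and 0.718 between Hsph1 and Dnajb1, and lowest between Hspb1 and Hspe1, at -0.589.

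The 3 genes most like each member over the same 28 means were listed among all genes tested. For Hspb6 they were Egf (r = 0.964), a growth factor made in the distal nephron, Wnk1 (0.955), a kinase that controls salt transport there, and Calb1 (0.941), a calcium-binding protein of the distal convoluted tubule. On day 28 Egf differed from vehicle by -1.27 on CsA at 25 mg/kg, -1.36 on FK506 at 6 mg/kg and -0.89 on FK506 at 0.6 mg/kg, and Calb1 by -3.39, -3.04 and -3.52. Both were called in these groups by limma. The Calb1 means lay in a low and a high cluster, while those of Egf were spread along the whole range. For Cryab the 3 were Slc22a2 (0.900), an organic cation transporter, Aif1l (0.890) and Asrgl1 (0.887). For Hspd1 they were Fggy (0.891), Prr5 (0.856) and Stk24 (0.855), and for Hspe1 Fggy (0.911), Rxrg (0.900) and Them4 (0.892). Slc5a3, the inositol transporter that responds to salt, was among the 3 for both Dnajb1 (0.813) and Hsph1 (0.752), with Irx3 (0.813) and Fbxo33 (0.801) for Dnajb1 and Usp20 (0.746) and Mettl16 (0.711) for Hsph1. Hsp90ab1 was most like Hnrnpc (0.703), Rbm4b (0.700) and Pip5k1a (0.686), and Hspb1 most like Gabarapl1 (0.783), Gpd1l1 (0.759) and Sun2 (0.745).

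**Figure D5:**
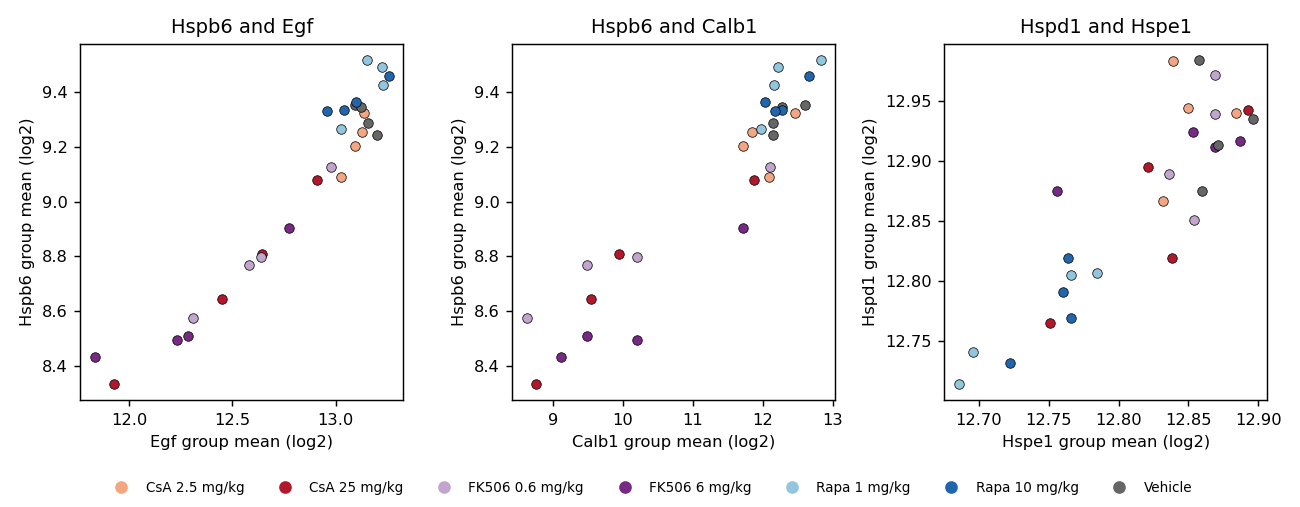
Group means on the log2 scale, 1 point per drug, dose and day group (n = 28), coloured by drug and dose. The Hspb6 and Egf means (left) lie along a line with r = 0.964, the Hspb6 and Calb1 means (middle) form a low and a high cluster, and the Hspd1 and Hspe1 means (right) have r = 0.874.

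Other chaperone genes, in 9 lists of 99 tested entries, were called in 6.52% of 2376 pairs with vehicle, 68 higher and 87 lower, against 10.94% for the 8 heat shock protein genes and 5.22% for all genes. The members and the lists were chosen with earlier results of these data known, so these shares are a description only. Hspb6, Hspd1 and Hspe1 held 8, 5 and 5 of the 21 member calls. Of 4 genes for heat shock factors and their regulators, 1 pair of 96 was called, Hsbp1 at -0.15 on CsA at 25 mg/kg on day 28, and Hsf1, the main heat shock factor, was not called. Among 9 other HSP70 genes 6 pairs were higher and 7 lower of 216. Hspa1a, the stress-inducible HSP70, rose on day 28 on FK506 at 6 mg/kg (0.48), Rapa at 1 mg/kg (0.54) and Rapa at 10 mg/kg (0.66). Hspa12a fell on CsA at 25 mg/kg on days 14 and 28 (-0.53 and -0.76), FK506 at 6 mg/kg on day 28 (-0.78) and Rapa at 1 mg/kg on day 28 (-0.52). Hspa4, a relative of Hsph1, fell after 1 dose of Rapa at 1 and 10 mg/kg (-0.54 and -0.58) and rose on Rapa at 10 mg/kg on day 28 (0.46), and Hspa13 rose in 2 groups, by up to 0.49.

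Among 18 other HSP40 genes 17 pairs were higher and 24 lower of 432. Dnajc6, which uncoats clathrin vesicles with HSP70, fell in 8 groups, by up to -0.88 on Rapa at 1 mg/kg on day 14, and Dnajc9, a histone chaperone, rose in 8, by up to 0.35. Dnajc12 fell in 7, by up to -0.34, and Dnajb2 rose in 3 and fell in 2. Of the 2 other small heat shock genes above the dim limit, Hspb8 rose once, by 0.90 on CsA at 25 mg/kg on day 1, and Hspb7 was not called. Of the HSP90 partners 3 pairs were higher and 15 lower of 384. Both directions together make 4.69%, against 5.22% over all genes, where calls split into 2.65% higher and 2.58% lower. The phosphatase Ppp5c fell in 4 groups (to -0.48), the HSP70-HSP90 organiser Stip1 in 3 (to -0.29), and Chordc1 and Fkbp4 in 2 each (to -0.45 and -0.33). HSP70 partners had 3 pairs higher and 4 lower of 240, with the ubiquitin ligase Stub1 higher in 3 (to 0.41), Hspbap1 lower in 2 (to -1.01), and Bag2 and Hspbp1 lower once each (-0.40 and -0.35).

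The cytosolic chaperonin and prefoldin list had 17 pairs higher and 6 lower of 288. Pfdn5 rose in 8 groups, by up to 0.46 on Rapa at 10 mg/kg on day 7, Cct4 in 4, by up to 0.28, and Cct5 in 2, by up to 0.25, while Pfdn4 fell in 3, by up to -0.21. Mitochondrial chaperones and proteases had 3 pairs higher and 11 lower of 312. Dnajc19, part of the mitochondrial import motor, fell in 5 groups, all on Rapa (to -0.32), and Clpx, the unfoldase of a matrix protease, in 3 (to -0.54 on CsA at 25 mg/kg on day 28). Afg3l2 fell and Hscb rose once each (-0.35 and 0.28). Endoplasmic reticulum chaperones had 18 pairs higher and 19 lower of 360, which is 10.28%. Sdf2l1 fell in 6 groups, all on Rapa (to -0.84), the lectin chaperone Canx rose in 4 (to 0.33 on CsA at 25 mg/kg on day 28), and the disulfide isomerases Pdia3 and Pdia6 each rose in 3 and fell in 2, by up to -0.55 and 0.50.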

How the data were processed

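Kidney RNA of 120 rats was measured on Affymetrix Rat 230 2.0 arrays. The authors deposited linear intensities per probe set, and the labels name GeneChip Operating Software as the source of the data. The summary and scaling behind them are not given in the sources used here. Intensities plus 16 were taken to log2 and quantile normalized. Of 14217 genes, each with its brightest probe set of its own in the platform's probe-to-gene table, the 25% with the lowest mean (3554) were left out, and limma 3.58.1 in R 4.3.3 was fitted with 1 mean per group (92 residual degrees of freedom), for 66 comparisons, two-sided, Benjamini-Hochberg adjusted per comparison. The number of rats limits the precision. p-values measure the spread between rats, which the labels tie to no batch. The method was tested on simulated data. The members and all gene lists were chosen with earlier results of these data known. Named are all members, those called in at least 3 comparisons or with the widest range in every rat, up to 4 genes called most often per chaperone list, and the 3 genes most like each member. Alternatives were other scalings, offset, filters, covariates and left-out arrays.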

Additional observations from a re-analysis of the deposited data

Results flagged for a closer look

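In groups of 4 to 10 rats, the highest or lowest rat was set against Dixon's 95% critical value, which chance alone passes in about 1 of 20 groups. Of 216 gene and group sets tested, 12 passed, against 10.8 that chance gives. For Hspb1 these were rat 4 of CsA at 2.5 mg/kg on day 1 (8.42, the others 8.50 to 8.50), rat 2 of FK506 at 6 mg/kg on day 7 (8.10, the others 8.28 to 8.31), rat 3 of FK506 at 6 mg/kg on day 28 (9.06, the others 8.55 to 8.64) and vehicle rat 2 on day 7 (9.43, the others 8.43 to 8.58). For Hsp90ab1 they were rat 2 of CsA at 25 mg/kg on day 14 (12.57, the others 12.40 to 12.42) and rat 5 of FK506 at 6 mg/kg on day 28 (12.27, the others 12.55 to 12.66), and for Dnajb1 rat 4 of Rapa at 1 mg/kg on day 1 (9.36, the others 9.54 to 9.55). Hspd1 stood out in rat 4 of CsA at 2.5 mg/kg on day 1 (12.91, the others 12.85 to 12.86) and rat 3 of FK506 at 6 mg/kg on day 28 (12.73, the others 12.89 to 12.93). Cryab stood out in rat 2 of Rapa at 10 mg/kg on day 7 (12.42, the others 11.96 to 12.04), rat 3 of FK506 at 0.6 mg/kg on day 14 (10.54, the others 11.44 to 11.58) and vehicle rat 2 on day 28 (11.19, the others 11.64 to 11.76).

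In 10 cases every rat of a drug group was above its vehicle mean on 1 day and every rat below it on another. These differences between days were not tested. The effect on Hspb1 of FK506 at 6 mg/kg was 0.32 on day 14 and 0.30 on day 28, against -0.48 on day 7, which are differences of 0.80 and 0.78. For Rapa at 1 mg/kg it was 0.51 on day 14 against -0.28 on day 7, a difference of 0.80. All 3 use the day 7 vehicle rats, among them the rat at 9.43. The effect on Dnajb1 of CsA at 2.5 mg/kg was 0.18 on day 14 against -0.22 on day 7, a difference of 0.40. On FK506 at 6 mg/kg it was 0.09 on day 1, against -0.22 on day 7 and -0.14 on day 28, differences of 0.31 and 0.23. The effect on Hspd1 of CsA at 25 mg/kg was 0.03 on day 7, against -0.06 on day 1, -0.04 on day 14 and -0.22 on day 28, differences of 0.0854, 0.0689 and 0.25. These also use vehicle rat 2 of day 7, which was the lowest of its group at 12.72. The day 7 vehicle median was 12.962, and the highest rat on CsA at 25 mg/kg read 12.960, below it. The effect on Hspe1 of that dose was 0.02 on day 7 against -0.08 on day 14, a difference of 0.10.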

How the results depend on the processing

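Under 11 alternatives (2 other scalings, 2 covariates, leaving out the array with zeros or those with high Alb, dim genes included, probe sets separate, a trend of spread with intensity, fits by day, and an offset of 1) and with each of 120 rats left out in turn, no called difference from vehicle changed sign. Of the 21 calls 14 held without any single rat and 8 held under every alternative as well: Hspb6 on FK506 at 6 mg/kg on days 7, 14 and 28, on CsA at 25 mg/kg on days 14 and 28 and on FK506 at 0.6 mg/kg on day 28, and Hspb1 and Hspd1 on Rapa at 10 mg/kg on day 28. Median centring lost most, keeping 12, losing 9 and adding 9. Without 1 rat the calls against vehicle numbered 19 to 23, between drugs 17 to 22 at the higher and 16 to 17 at the lower doses, between doses 2 to 6, between vehicle days 0 to 1 and for change with time 0 to 2. Calls between doses were 3, in place of 5, with dim genes included, with probe sets separate and with fits by day. Calls for change with time were 1, in place of 0, with the trend of spread and without the array with zeros. The cause was not tested. The Hspb6 call on CsA at 25 mg/kg on day 7 was lost without vehicle rat 2, 3 or 4 or CsA rat 3 or 4, and that on FK506 at 0.6 mg/kg without vehicle rat 2, 3 or 4 or FK506 rat 1, 2 or 3. The Hspd1 call on Rapa at 10 mg/kg on day 14 was lost without vehicle rat 1, 2 or 3 or Rapa rat 1, 3 or 4, the Hspe1 call there without vehicle rat 1 or 2 or Rapa rat 1 or 3, and the Hspe1 call on CsA at 25 mg/kg on day 28 without vehicle rat 1, 2, 3 or 5 or CsA rat 1, 2 or 4. No paired analysis was possible because the labels give rat identifiers and no replicate numbers shared between groups.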
